A study of Homo sapiens with 4 samples.

Results

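The histone genes of TPC1 cells were examined after 24 h and after 6 h of the FGFR inhibitor BGJ398. They were all genes of the count table whose symbol began with HIST1H to HIST4H, H1F, H2AF or H3F, which gave 87 of 20372 genes. Of these, 71 were replication-dependent genes, named for the cluster in which they lie, and 16 were replacement variants. TPC1 is an established line from a human papillary thyroid cancer, with a CCDC6-RET fusion gene. The tested libraries were 2 of cells kept for 24 h in BGJ398, and they were set against 2 of cells kept for 6 h. All 4 libraries thus carried the inhibitor, and no untreated or vehicle library was analysed here, so a difference between the times is no measure of the response to the drug. The dose was 100 micromolar by the labels, but the methods state that figure as nanomolar, which leaves the dose uncertain. The labels name replicates by number only, and nothing states separate cultures, so that the p-values may measure technical spread alone.

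Histones are the proteins around which DNA is wound. An octamer of H2A, H2B, H3 and H4 forms the nucleosome core, and the linker histone H1 binds where the DNA enters and leaves it. The replication-dependent genes lie in clusters, lack introns as a rule and are transcribed in S phase, when new chromatin is made. Their mRNAs end in a conserved stem-loop, bound by SLBP, in place of a poly(A) tail. The replacement variants are single genes, some with introns and most with poly(A) tails, and are expressed through the cell cycle and in resting cells. Among them, H2A.Z (H2AFZ, H2AFV) is found at promoters and enhancers, H3.3 (H3F3A, H3F3B) is deposited at active genes, macroH2A (H2AFY, H2AFY2) is found on the inactive X chromosome, and H2A.X (H2AFX) is phosphorylated at DNA breaks.

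Transcripts for 83 of the 87 genes were found in GENCODE release 44, 47 by Ensembl identifier and 36 through an older symbol. The sequence search used the known pattern of the replication-dependent stem-loop, so a match in that class is a description and no independent support for the split. The share over all transcripts was not counted. A histone stem-loop, with a stem of 6 paired bases and a loop of 4, was present in 67 of the 67 replication-dependent genes with a transcript and in 1 of 16 replacement variants, H2AFX. In 65 of the 67 genes a transcript ended at most 10 bases after the stem-loop, and in 47 of them the transcript that ended nearest did so 5 bases after it. In 11 of the 67 genes the longest transcript was a different one and longer. The exceptions included HIST2H2BE, whose 1 transcript ran on for 1729 bases. That of H2AFX ran on for 1024 bases. The sites of selected genes, H2AFX among them, are given because the stem-loop marks the replication-dependent class. HIST1H2BC, HIST1H3E and HIST1H2AG are left out, although each had more counts than HIST1H4H. Each site is written 5′ to 3′ with the stem-loop in capitals and up to 5 flanking bases on each side.
HIST1H2BK: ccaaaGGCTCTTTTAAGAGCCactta
HIST1H2AC: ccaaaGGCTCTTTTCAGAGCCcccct
HIST1H1C: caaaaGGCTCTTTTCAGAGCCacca
HIST1H2BD: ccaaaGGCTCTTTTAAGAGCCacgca
HIST2H2BE: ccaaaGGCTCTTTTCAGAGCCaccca
HIST1H4H: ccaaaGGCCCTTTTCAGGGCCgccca
H2AFX: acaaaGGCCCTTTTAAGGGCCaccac
The stem varied by a base pair between HIST1H4H and H2AFX on one side and the H1, H2A and H2B genes shown on the other. The loop began with the same 3 bases in all 7 sequences. Of the genes left out, HIST1H3E differs from these in the second base of the loop, and HIST1H2AG has a G opposite a T in its stem. A match is a description of these letters and not a measurement of how the mRNAs ended in these cells.

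The promoters, taken as 250 bases before to 50 after the annotated start in RefSeq (GRCh38.p14), were found for 76 of the 87 genes. The TATA sequence TATAAA, searched on both strands, was present in 42 of 62 replication-dependent promoters (67.7%) and in 4 of 14 replacement promoters (28.6%), against 11.5% of all 35116 promoters of that length. Where neighbours lie head to head, a site can be counted for both genes. The only match of HIST1H2BC, for example, is the TATA sequence of HIST1H2AC on the other strand. The CCAAT box was also searched on both strands. It was present in 52 of 62 replication-dependent promoters (83.9%) and in 11 of 14 replacement promoters (78.6%), against 34.6% of all promoters. The promoters of H2AFZ, at chr4:99950226-99950525 on the minus strand, and of HIST1H2BK, at chr6:27146809-27147108 on the minus strand, are shown. They were chosen because these genes had the highest level of their class per transcript length. For HIST1H2BK that length was 495 bases, whereas the gene as deposited spans 8547 bases. The part of this span that was counted is not given, so its level per length is uncertain. The capitals mark the TATA sequence and the CCAAT box on either strand.
H2AFZ: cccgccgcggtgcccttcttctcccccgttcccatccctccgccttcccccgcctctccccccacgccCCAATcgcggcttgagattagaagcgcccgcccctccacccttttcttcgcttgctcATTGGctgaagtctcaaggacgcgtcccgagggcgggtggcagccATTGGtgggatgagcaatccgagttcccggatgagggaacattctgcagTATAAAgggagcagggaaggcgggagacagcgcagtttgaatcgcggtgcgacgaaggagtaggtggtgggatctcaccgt
HIST1H2BK: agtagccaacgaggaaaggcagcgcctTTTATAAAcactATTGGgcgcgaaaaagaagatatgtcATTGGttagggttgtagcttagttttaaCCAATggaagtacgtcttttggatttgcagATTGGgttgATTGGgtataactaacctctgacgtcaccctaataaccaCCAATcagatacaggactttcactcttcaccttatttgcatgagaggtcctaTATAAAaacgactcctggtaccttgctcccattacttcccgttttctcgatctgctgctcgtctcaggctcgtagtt
Both hold a TATA sequence a short way before the start and several CCAAT boxes further off. Among the replacement variants, the promoters of H3F3B and H2AFX likewise hold both the TATA sequence and the CCAAT box. The transcripts of H2AFZ and H3F3B have no stem-loop.

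Sequencing gave totals of 25089167 and 24958447 counts for the 24 h libraries, with 25212226 and 26325512 for the 6 h libraries. Histone genes took 0.189% and 0.197% of the counts at 24 h and 0.164% and 0.176% at 6 h. The 13 protein-coding genes of the mitochondrial genome took 1.68% and 2.98% of the counts at 24 h and 1.09% and 1.40% at 6 h, so that replicate 2 at 24 h stood highest. Replicates were distinct libraries, with a chi-square between the pair of 32.7 per degree of freedom for 24 h and 16.5 for 6 h. Of the follicular cell markers, PAX8 was abundant, whereas NKX2-1 and TSHR had no count. The summed leukocyte markers, nearly all CD68, were at 166 to 202 CPM at 24 h and 211 to 237 CPM at 6 h, while CD3E was at 0. Their part in the results was not tested.

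The histone reads came almost wholly from replacement variants. Levels are given in CPM, each gene's counts scaled to 1000000 of the library's total over tested genes, after edgeR's TMM factors. Summed over the 16 replacement variants, the level was 1788 and 1892 CPM at 24 h and 1601 and 1634 CPM at 6 h. Summed over the 71 replication-dependent genes, it was 88.4 and 86.0 CPM at 24 h and 82.2 and 83.8 CPM at 6 h. Replacement variants thus held 20.2 and 22.0 times the reads of the replication-dependent genes at 24 h and 19.5 times in both 6 h libraries. The sums compare reads, not molecules, because transcript lengths differ. Whether the libraries were made from poly(A)-selected RNA is not given in the sources used here, and the part of such a step in this ratio was not tested.

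The share of histone counts held by replication-dependent genes was 4.71% (Wilson 95% confidence interval 4.53 to 4.91) and 4.35% (4.17 to 4.53) at 24 h. It was 4.88% (4.68 to 5.10) and 4.88% (4.69 to 5.08) at 6 h. Both 24 h libraries lay below both 6 h libraries, with overlapping intervals for replicate 1. H2AFZ alone held 26.9% (26.5 to 27.3) and 31.2% (30.8 to 31.7) at 24 h, against 22.9% (22.5 to 23.3) and 24.4% (24.0 to 24.8) at 6 h. The groups did not overlap. The intervals cover counting error only, and an exact two-sided permutation test of 2 libraries against 2 can reach no p below 0.333.

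**Figure D1:**
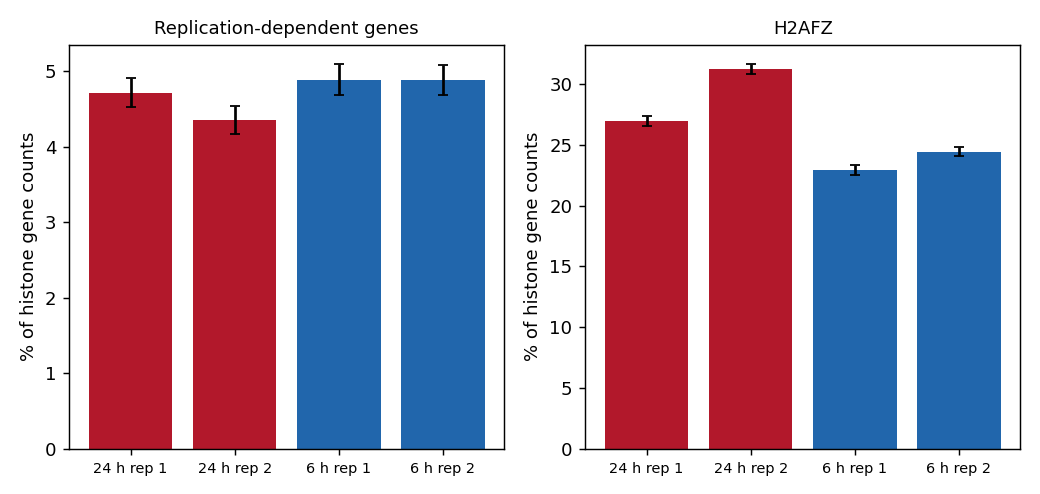
Share of all histone gene counts (percent, from 0) held by the replication-dependent genes (left) and by H2AFZ (right) in each library, 24 h libraries in red and 6 h libraries in blue, with Wilson 95% intervals. Replication-dependent genes stayed between 4.35% and 4.88%, and H2AFZ was at 26.9% and 31.2% at 24 h against 22.9% and 24.4% at 6 h.

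Of the 87 genes, 28 passed the filter on low counts (filterByExpr), 11 replacement variants and 17 replication-dependent genes. Of the rest, 21 had no count in any library, 17 of them replication-dependent, and 33 replication-dependent genes had 1 to 20 counts in all. In these libraries, 3 counts correspond to 0.111 to 0.122 CPM, so a gene without counts may lie below that level. The 5 replacement variants below the filter were the testis- and oocyte-associated linker histones H1FNT, with 1 count, and H1FOO, and the testis-associated H2A.B genes H2AFB1, H2AFB2 and H2AFB3, all 4 without a count. Of the 28, 24 reached the level of the filter at both times, HIST1H2BH and HIST1H3H in both libraries at 24 h only, and HIST1H3D and HIST1H2BG in both libraries at 6 h only. Counts and medians over the 28 are descriptions of these genes and not of all 87.

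**Figure D2:**
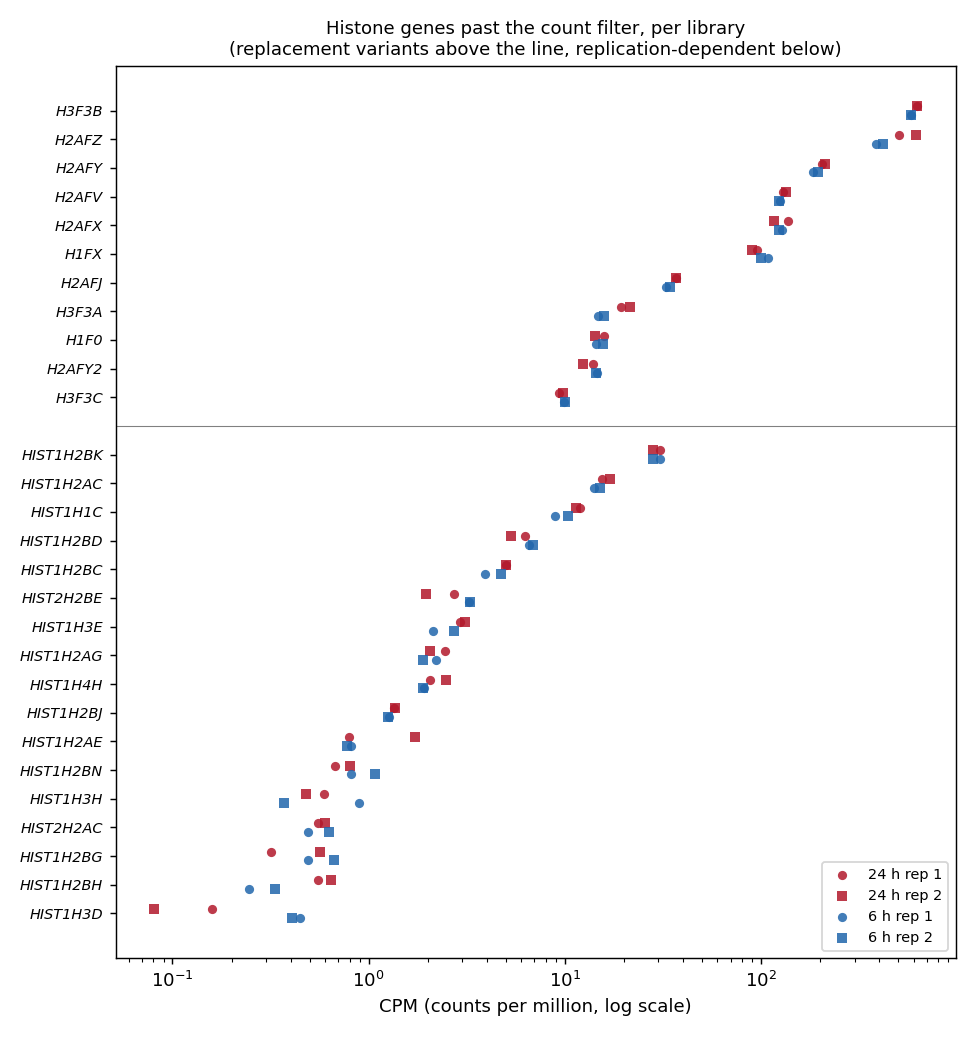
Level of each histone gene that passed the filter in each library (CPM, log axis), 24 h in red and 6 h in blue, replicate 1 as circles and replicate 2 as squares. Replacement variants lie above the line, with H3F3B highest and H3F3C lowest, and replication-dependent genes lie below it, with HIST1H2BK highest.

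Between the times, no histone gene passed edgeR's quasi-likelihood test at an adjusted p of 0.05, and neither did any of the 12549 genes tested (0.0%). At an unadjusted p under 0.05 there were 3 of the 28 histone genes, H2AFZ, H3F3A and HIST1H3D, against 24.4% of all genes, and the third of these passed the filter through its 6 h libraries alone. With 1 library left out, edgeR called 2 histone genes without replicate 1 at 24 h (24.5% of all genes) and none without replicate 2 at 24 h (0.00788%), replicate 1 at 6 h (0.00782%) or replicate 2 at 6 h (6.95%). DESeq2 called 1 histone gene, H2AFZ, of 8 with an adjusted p, against 8.23% of the 7410 genes that had one. The fold change was positive in 19 of the 28 genes and negative in 9, against 50.0% positive of all genes, and the median log2 fold change was 0.09, against 0.00 over all genes. Both 24 h libraries lay above both 6 h libraries in 13 histone genes (31.3% of all genes) and below them in 7 (31.5% of all genes). The 13 include HIST1H2BH and the 7 include HIST1H3D, each of which passed the filter only through the time at which it was higher.

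**Figure D3:**
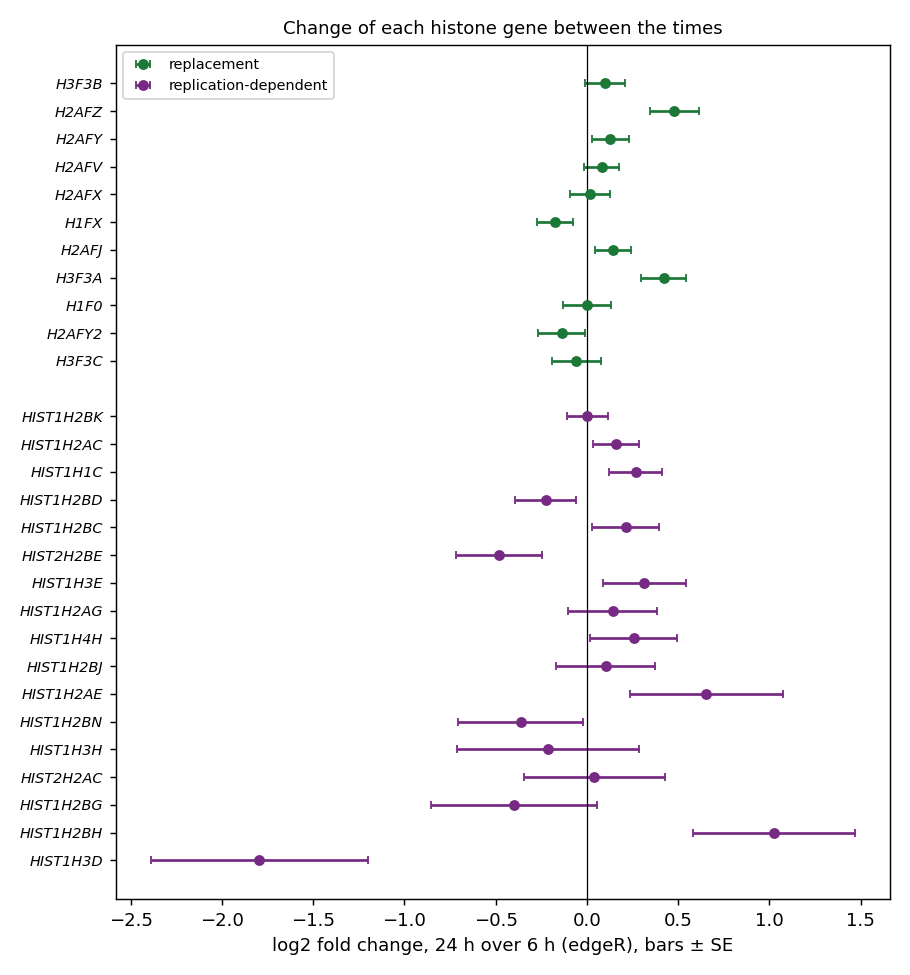
Log2 fold change of 24 h over 6 h from edgeR for each histone gene that passed the filter, with bars of 1 SE, replacement variants in green above and replication-dependent genes in purple below. H2AFZ at 0.48 and H3F3A at 0.42 lie furthest right among the replacement variants, and the replication-dependent genes range from −1.80 (HIST1H3D) to 1.03 (HIST1H2BH) with wider bars.

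Among the replacement variants, H2AFZ had the largest fold change. H2AFZ (ENSG00000164032, chromosome 4, 100869243 to 100871545 in hg19) had 506 and 618 CPM at 24 h and 386 and 420 CPM at 6 h. Both 24 h libraries were above both 6 h libraries, and replicate 2 at 24 h, the library with the largest mitochondrial share, was the highest. The mean of the 24 h libraries was 562 ± 79.4 CPM and that of the 6 h libraries 403 ± 24.1 CPM (SD, n = 2 each), a log2 fold change of 0.48 ± 0.13 (SE; 95% confidence interval 0.17 to 0.79). The adjusted p of edgeR was 0.173, and that of DESeq2 was 0.0212. Without replicate 2 at 24 h the log2 fold change was 0.33 (edgeR adjusted p 0.566), and without replicate 1 at 24 h it was 0.61 (edgeR adjusted p 0.00364, in a fit that called 24.5% of all genes). In both fits 1 library stood for 24 h and was taken to vary like the 6 h pair. Per kilobase of its longest transcript of 868 bases, H2AFZ had the highest level of the histone genes with a transcript, at 647 CPM per kb at 24 h and 464 at 6 h.

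The second H2A.Z gene, H2AFV, had 129 and 134 CPM at 24 h and 125 and 124 CPM at 6 h. The libraries did not overlap, but the difference was small, a log2 fold change of 0.08 ± 0.09. Together, the H2A.Z genes stood at 635 and 752 CPM at 24 h against 511 and 544 CPM at 6 h, and H2AFZ made up most of that. With H2AFZ left out, the replacement variants summed to 1282 and 1274 CPM at 24 h and 1215 CPM in both 6 h libraries, a log2 ratio of 0.07, as against 0.19 with it. The log2 ratio of the summed replication-dependent genes was 0.07 as well.

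Change between the times was related to transcript length over the whole table. The 460 tested genes with a longest transcript of up to 1000 bases had a median log2 fold change of 0.34 (quartiles 0.13 and 0.52), against 0.14 for 1000 to 2000 bases, 0.02 for 2000 to 4000 bases, −0.07 for 4000 to 8000 bases and −0.11 above. H2AFZ, with 868 bases and 0.48, lay between the median and the upper quartile of the shortest genes. Of these 460 genes, 32.6% had a fold change at least that of H2AFZ, against 8.46% of all tested genes. DESeq2, which called H2AFZ, called 16.96% of the 460 and a lower percentage in each longer range. These percentages are of all tested genes in a range, with or without an adjusted p. The part of transcript length in the difference of H2AFZ was not tested.

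**Figure D4:**
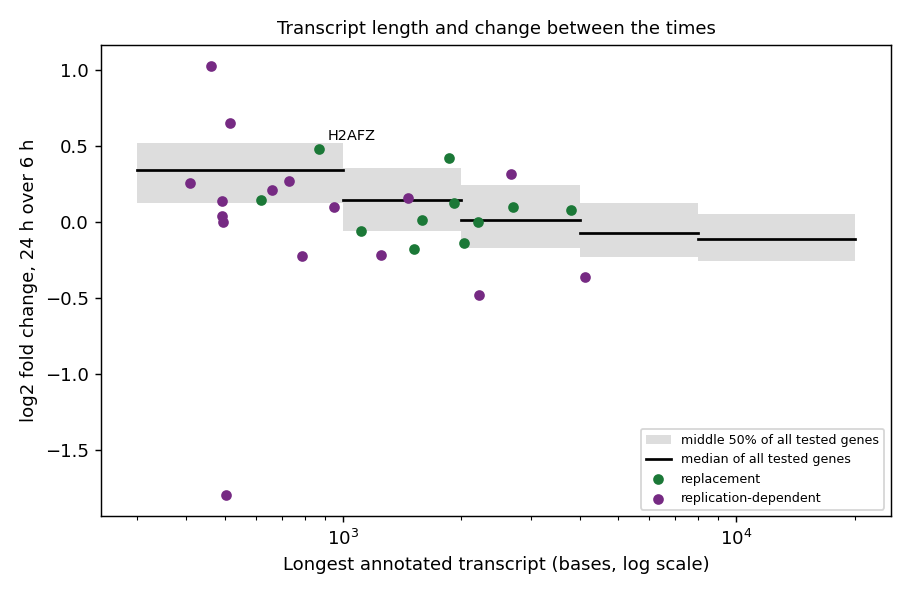
Log2 fold change of 24 h over 6 h against the longest annotated transcript (bases, log axis). Black lines and grey boxes show the median and middle 50% of all tested genes in 5 length ranges, falling from 0.34 for the shortest to −0.11 for the longest, and points are the histone genes.

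The H3.3 genes encode the same protein. H3F3B (ENSG00000132475, chromosome 17, 73772515 to 73781974 in hg19) had the most histone reads, 621 and 627 CPM at 24 h and 583 and 581 CPM at 6 h, with a log2 fold change of 0.10 ± 0.11. The times did not overlap, although the difference was within 1 SE of 0. H3F3A had 19.3 and 21.5 CPM at 24 h and 14.7 and 15.8 CPM at 6 h. Its libraries did not overlap either, and its log2 fold change was 0.42 ± 0.12 (95% confidence interval 0.13 to 0.71), with an edgeR p of 0.0100 and an adjusted p of 0.173. It had no adjusted p in DESeq2. Only 71.2% of its 50-base windows occur at 1 place in the genome, so reads from its processed copies could be counted or lost with it. H3F3C, a retrotransposed relative, had 9.39 and 9.80 CPM at 24 h and 9.95 and 10.0 CPM at 6 h, lower at 24 h by less than its SE of 0.14.

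Of the other core variants, macroH2A1 (H2AFY) had 204 and 212 CPM at 24 h and 184 and 196 CPM at 6 h, with a log2 fold change of 0.13 ± 0.10. H2AFJ, an H2A variant linked to senescence, had 37.1 CPM in both 24 h libraries and 32.8 and 34.3 CPM at 6 h, with 0.14 ± 0.10. Both were higher at 24 h without passing the test. In the other direction, macroH2A2 (H2AFY2) had 13.9 and 12.4 CPM at 24 h and 14.6 and 14.4 CPM at 6 h, a log2 fold change of −0.14 ± 0.13. H2AFX had 137 and 116 CPM at 24 h and 127 and 123 CPM at 6 h, and its groups overlapped.

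The linker variants did not share a direction. H1FX had 95.1 and 89.8 CPM at 24 h and 109 and 99.7 CPM at 6 h, the lowest log2 fold change among replacement variants, −0.17 ± 0.10. Its libraries did not overlap. H1F0, which accumulates in differentiated and resting cells, had 15.9 and 14.2 CPM at 24 h and 14.4 and 15.7 CPM at 6 h, a log2 fold change of 0.00 ± 0.13, and its groups overlapped.

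The replication-dependent reads were concentrated in few genes. The 12 genes with most counts held 93.2% of them, the top 4 held 72.5% and HIST1H2BK alone held 34.5%. By subfamily, H2B genes summed to 48.2 and 44.3 CPM at 24 h and 47.7 and 46.6 CPM at 6 h. H2A genes summed to 20.3 and 21.9 CPM at 24 h and 18.1 and 19.0 CPM at 6 h. H1 genes summed to 12.01 and 11.5 CPM at 24 h and 9.09 and 10.8 CPM at 6 h. H3 and H4 genes were lowest, at 4.95 and 4.74 CPM and at 2.93 and 3.62 CPM at 24 h, against 4.16 and 4.49 CPM and 3.18 and 2.89 CPM at 6 h. All 4 tested H2A genes had a positive fold change, and the 8 tested H2B genes were split 4 to 4.

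HIST1H2BK (ENSG00000197903, chromosome 6, 27106073 to 27114619 in hg19) had 30.7 and 28.1 CPM at 24 h and 30.7 and 28.1 CPM at 6 h. The times coincided and its log2 fold change was 0.00 ± 0.11. Its span overlaps that of HIST1H4I. Of the 50-base windows of its 1 annotated transcript, of 495 bases, only 42.8% occur at 1 place. The rest of its deposited span of 8547 bases was not scored, so the uniqueness of all its counted sequence is not known. HIST1H2AC, an H2A gene, had 15.5 and 17.0 CPM at 24 h and 14.0 and 15.1 CPM at 6 h, with a log2 fold change of 0.16 ± 0.13. HIST1H1C, which encodes the common linker histone H1.2, had 11.97 and 11.4 CPM at 24 h and 8.93 and 10.4 CPM at 6 h, with 0.27 ± 0.14. For both the 24 h libraries lay above the 6 h libraries, and neither passed the test.

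The H2B genes went both ways. HIST2H2BE had 2.73 and 1.97 CPM at 24 h and 3.26 and 3.303 CPM at 6 h, a log2 fold change of −0.48 ± 0.24. Its 1 annotated transcript extends 1729 bases beyond the stem-loop. HIST1H2BD had 6.26 and 5.30 CPM at 24 h and 6.61 and 6.90 CPM at 6 h, with −0.22 ± 0.17. HIST1H2BC had 5.03 and 5.02 CPM at 24 h and 3.91 and 4.75 CPM at 6 h, with 0.21 ± 0.19. None of these passed the test, and in each the groups did not overlap.

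Of the other genes with a mean of at least 1 CPM, HIST1H3E (H3) had 2.93 and 3.09 CPM at 24 h and 2.12 and 2.71 CPM at 6 h, with a log2 fold change of 0.31 ± 0.23. HIST1H4H (H4) had 2.06 and 2.49 CPM at 24 h and 1.92 and 1.89 CPM at 6 h, with 0.26 ± 0.24. Both were higher at 24 h in all libraries. HIST1H2BJ, an H2B gene, lay at 1.35 and 1.37 CPM at 24 h and 1.26 CPM in both 6 h libraries, with 0.10 ± 0.27. The H2A gene HIST1H2AG had 2.46 and 2.05 CPM at 24 h and 2.20 and 1.89 CPM at 6 h, with overlapping groups. HIST1H2AE, also an H2A gene, had 0.79 and 1.73 CPM at 24 h and 0.82 and 0.78 CPM at 6 h, with 0.66 ± 0.42. Its groups overlapped, and without replicate 2 at 24 h its log2 fold change was −0.0074. HIST1H2BN, at about 1 CPM or below, had a log2 fold change of −0.36 ± 0.34.

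The widest fold changes stood on few counts. HIST1H3D, chosen after its values were seen, was counted 4 and 2 times in the 24 h libraries and 11 times in each 6 h library, a log2 fold change of −1.80 ± 0.59. It passed the filter only through the 6 h libraries, where it was high, so that the fold change is a description. Its span overlaps that of HIST1H2AD. Over the 17 tested replication-dependent genes the median log2 fold change was 0.10, with 11 positive and 6 negative. Over the 11 tested replacement variants it was 0.08, with 8 positive and 3 negative. The medians differed by 0.02, a difference that was not tested and that ran from −0.029 to 0.14 when 1 library was left out.

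The replication-dependent genes lay in 6 stretches, with 55 genes on chromosome 6 and 15 on chromosome 1. In hg19, the stretch on chromosome 6 from 25726291 to 26285762 held 34 genes and 4645 counts, 10 of them tested. That from 27093676 to 27115317 held 5 genes but 3352 counts, most of them HIST1H2BK, and that from 27775257 to 27861669 held 16 genes with 250 counts. On chromosome 1, the stretch from 149400131 to 149859466 held 12 genes and 363 counts, and 7 of its genes had no count.

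H2A and H2B genes often lie head to head and share a promoter region. In 4 such pairs both genes were tested. HIST1H2BC and HIST1H2AC, 218 bases apart, had log2 fold changes of 0.21 ± 0.19 and 0.16 ± 0.13. HIST2H2BE and HIST2H2AC, 292 bases apart, had −0.48 ± 0.24 and 0.04 ± 0.39. In HIST1H2BG and HIST1H2AE, 292 bases apart, the values were −0.40 ± 0.45 and 0.66 ± 0.42, and in HIST1H2BJ and HIST1H2AG, 290 bases apart, they were 0.10 ± 0.27 and 0.14 ± 0.24. Signs matched in 2 of the 4 pairs, and none of the 8 genes passed the test. HIST1H2BG passed the filter through its 6 h libraries only, where it was higher, so its sign is a description. The fold changes of HIST2H2AC, HIST1H2BG, HIST1H2BJ and HIST1H2AG were within 1 SE of 0, so that little can be read from the signs.

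The genes differed in how far the sequence of their annotated transcripts recurs in the genome. The 6 replication-dependent genes without a single 50-base window at 1 place, HIST2H2AA3, HIST2H2AA4, HIST2H3A, HIST2H3C, HIST2H4A and HIST2H4B, had no count, and neither did H2AFB2 and H2AFB3. Of the 50 replication-dependent genes with at least 90% of windows at 1 place, 10 had no count. Of the 11 below that share but above 0%, 1 had no count. Genes annotated over more than 1000 bases, 20 of 71, held 77.6% of the replication-dependent counts, and the other 51 held 22.4%. The methods point to a stranded TruSeq kit, but whether strand was used in the counting is not stated, and without it reads of overlapping genes on opposite strands cannot be told apart.

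**Figure D5:**
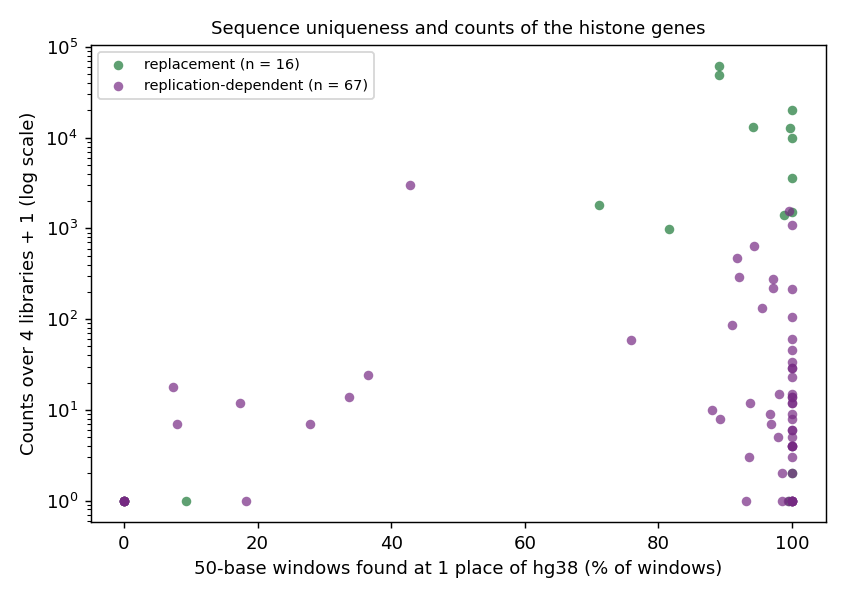
Counts of each histone gene over the 4 libraries plus 1 (log axis) against the percentage of its 50-base windows found at 1 place in hg38. Windows were taken from annotated transcripts only, for 16 replacement variants (green) and 67 replication-dependent genes (purple). Genes at 0% sit at no count, while HIST1H2BK, at 42.8% of windows, is among the highest of its class.

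The genes that supply histones were described by list, with the medians read against 0.00 over all genes. For transcription and 3′ processing of histone mRNA, 28 genes were tested, with 12 positive, 16 negative and a median log2 fold change of −0.02. At an unadjusted p under 0.05, 7 were higher (13.9% of all genes) and 3 lower (10.5%). edgeR called none and DESeq2 called 2 of 24 higher (5.59% of all genes) and none lower (2.65%). These were LSM1, a subunit of the ring that takes part in histone mRNA decay, and SNRPG, a core spliceosome protein shared with the U7 particle. LSM1 had 52.0 and 71.3 CPM at 24 h and 39.5 and 46.2 CPM at 6 h, a log2 fold change of 0.53 ± 0.16 (DESeq2 adjusted p 0.0409). SNRPG had 46.3 and 82.6 CPM at 24 h and 34.6 and 40.1 CPM at 6 h, with 0.79 ± 0.24 (DESeq2 adjusted p 0.0193). Both were highest in replicate 2 at 24 h. SNRPF, another core protein, had a log2 fold change of 0.44 ± 0.13, and UPF1, a helicase that takes part in the decay of histone mRNA, one of −0.40 ± 0.12, and neither passed a test.

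Among 33 tested histone chaperones and variant deposition genes, 11 were positive and 22 negative, with a median of −0.11. At an unadjusted p under 0.05, 6 were higher (13.9% of all genes) and 3 lower (10.5%). edgeR called none, and DESeq2 called 3 higher (5.59% of all genes) and 1 lower (2.65%) of 28. ZNHIT1, a subunit of the SRCAP complex that deposits H2A.Z, had 41.8 and 46.2 CPM at 24 h and 27.6 and 29.8 CPM at 6 h, a log2 fold change of 0.61 ± 0.11 (DESeq2 adjusted p 0.0129). ASF1A, an H3-H4 chaperone, had 70.3 and 84.1 CPM at 24 h and 52.7 and 56.4 CPM at 6 h, with 0.50 ± 0.12 (DESeq2 adjusted p 0.0241). Both were higher at 24 h in all libraries, as was NPM1, a nucleolar chaperone, with 0.41 ± 0.12 (DESeq2 adjusted p 0.0367). SUPT6H, a chaperone of transcribing RNA polymerase, was lower, at 66.8 and 61.7 CPM at 24 h against 101 and 80.7 CPM at 6 h, with −0.50 ± 0.13 (DESeq2 adjusted p 0.0250). The centromeric variant CENPA, outside the rule by symbol, had 30.8 and 34.9 CPM at 24 h and 25.6 and 27.7 CPM at 6 h, with 0.30 ± 0.12, and passed neither test.

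Of the 50 tested S phase genes, 30 were positive and 20 negative, with a median of 0.07. At an unadjusted p under 0.05, 14 were higher (13.9% of all genes) and 2 lower (10.5%). edgeR called none and DESeq2 called 3 of 35, all higher (5.59% of all genes). GINS1, a subunit of the replicative helicase, had 55.3 and 62.1 CPM at 24 h and 37.8 and 43.3 CPM at 6 h, a log2 fold change of 0.53 ± 0.12 (DESeq2 adjusted p 0.0209). PCNA, the sliding clamp of DNA polymerase, had 144 and 170 CPM at 24 h and 110 and 122 CPM at 6 h, with 0.44 ± 0.12 (DESeq2 adjusted p 0.0367). GMNN, which blocks relicensing of origins, had 32.7 and 42.9 CPM at 24 h and 21.5 and 27.9 CPM at 6 h, with 0.61 ± 0.17 (DESeq2 adjusted p 0.0292). All 3 had both 24 h libraries above both 6 h libraries, but they are the called genes of the list. The 2 lower at an unadjusted edgeR p under 0.05 were CHAF1A, with −0.33 ± 0.13, and CDT1, with −0.38 ± 0.15. The median over the whole S phase list, 0.07, stood beside a median of 0.10 over the 17 tested replication-dependent histone genes. The log2 ratio of their class sums, 0.07, is a different measure. POLE2, a subunit of DNA polymerase epsilon, had 0.66 ± 0.19 and no adjusted p in DESeq2. In bulk RNA, more cells in S phase and more RNA of these genes per cell cannot be told apart.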

How the data were processed

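RNA-seq of TPC1 cells was measured in 4 libraries. The authors deposited whole-number read counts per gene with hg19 coordinates, without normalization. The submitters' processing notes name STAR 2.3, hg19 and DESeq2. Reads were single-end by the labels and paired-end by the methods. The methods point to a stranded TruSeq kit, the labels to the TruSeq RNA protocol. The sources used here do not give the counter, its annotation or its strand setting. Totals were 24958447 to 26325512 counts per library.

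Genes were tested with edgeR 4.0.16 (quasi-likelihood, TMM, filterByExpr) in R 4.3.3 on the whole table, 24 h over 6 h, with Benjamini-Hochberg adjustment over 12549 genes and a threshold of 0.05. DESeq2 1.42.0 was an alternative, as were its size factors, other filters, a replicate block and leaving out each library. The fits were tested on simulated data. Genes were named by rule: every replacement variant past the filter, the 12 replication-dependent genes highest in CPM, up to 6 per direction with the largest change among those of at least 1 CPM whose times did not overlap, every member called, and up to 4 genes per list with the smallest edgeR p. Windows, stem-loops and lengths came from GENCODE 44 on hg38 and promoters from RefSeq, matched by identifier or symbol without converting coordinates. Members and lists were chosen with earlier results of these data known.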

Additional observations from a re-analysis of the deposited data

How the results depend on the processing

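No histone gene was called by edgeR. DESeq2 called 1, the replicate block 3 (H2AFZ, H3F3A and HIST1H3D, against 36.4% of all genes, the third having passed the filter through 6 h alone), and leaving out 1 library gave 0 to 2, the most without replicate 1 at 24 h, where 24.5% of all genes were called (6.95% without replicate 2 at 6 h, 1 gene in each other fit). The labels give same-numbered libraries only a number in common, while the differences between replicates at 24 h and at 6 h correlated at 0.49 over 12549 genes, so that the block is a hint from the data. The median log2 fold change of replication-dependent genes (0.10) was 0.14 with no filter, 0.18 at a mean of at least 10 CPM, 0.14 without overlapping genes, 0.16 at 1 CPM or more and 0.15 with at least 90% of windows at 1 place, and 0.064 to 0.21 without 1 library. That of replacement variants (0.08) was 0.11 at 10 CPM, 0.049 without overlapping genes, 0.017 for unique windows, and 0.070 to 0.098 without 1 library. Their difference (0.02) was 0.060 with no filter, 0.069 at 10 CPM, 0.092 without overlapping genes, 0.078 at 1 CPM and 0.13 for unique windows, and −0.029 to 0.14 without 1 library. The restriction to unique windows, DESeq2 with a library left out and the look at transcript length were chosen after seeing the data. Among the tested replacement variants, the restriction to at least 90% of windows at 1 place dropped H2AFZ and H3F3B, both at 89.0%. It also dropped H3F3A, at 71.2%, and H3F3C, at 81.5%. The log2 ratio of summed replication-dependent CPM (0.07) was 0.096 at 10 CPM and 0.12 without overlapping genes, and that of replacement variants (0.19) 0.26 without overlapping genes. The causes were not tested.

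In the lists, where edgeR called none, DESeq2, the block and the fits without 1 library called 2, 13 and 0 to 7 of the genes for histone mRNA, 4, 15 and 0 to 8 of the chaperones and 3, 23 and 0 to 13 of the S phase genes, to be read against 8.23%, 36.4% and 0.00782% to 24.5% of all genes. Of 23 named histone genes, 5 changed sign under some setting. H1F0 was −0.0057 with DESeq2, −0.0049 with no filter and −0.00049 with the block, and ran from −0.090 to 0.079 without 1 library (DESeq2: −0.097 without replicate 1 at 24 h, −0.068 without replicate 1 at 6 h). HIST1H2BK was −0.0055 with DESeq2 and −0.0045 with no filter, and ran from −0.072 to 0.065 (DESeq2: −0.079 without replicate 1 at 24 h, −0.067 without replicate 2 at 6 h). H2AFX ran from −0.12 to 0.13 (DESeq2: −0.13 without replicate 1 at 24 h, −0.014 without replicate 2 at 6 h), HIST1H2AG from −0.0041 to 0.27 (DESeq2: −0.013 without replicate 1 at 24 h) and HIST1H2AE from −0.0074 to 1.10 (DESeq2: −0.017 without replicate 2 at 24 h). Below about 0.12 CPM the depth cannot show a level.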
